A study of Rattus norvegicus with 6 samples.

Results

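The genes described here build and anchor the tight junction of lung epithelium and endothelium. They were the 9 genes Cldn3, Cldn4, Cldn5, Cldn7, Cldn18, Ocln, Tjp1, F11r and Cgn, found by their gene name in the table of linear transcripts. Rows carried the names of 8 of the 9, with 35 of the 70376 transcripts and 8 of the 21655 gene names in the table. No row carried the name Cldn5, the claudin typical of endothelium, so Cldn5 was not analysed here. The lung tissue came from Sprague-Dawley rats that were 7 weeks old at the start. The 3 model rats had received bleomycin at 7 mg/kg once into the trachea, which injures the epithelium and is followed by fibrosis, and the 3 control rats had received the same volume of saline. Lungs were taken after 28 days, and 1 library depleted of rRNA was made from each rat. Whole lung was sequenced, so fewer cells of a type and less RNA per cell cannot be told apart in any value below.

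Tight junctions seal the space between neighbouring cells and set how easily ions, solutes and fluid pass between them. Claudins are the membrane proteins that form the strands of the seal, and each claudin gives the barrier its own permeability. Occludin and junctional adhesion molecules lie in the same membrane contacts, while ZO-1 and cingulin are plaque proteins at the inner face that tie the strands to actin. In the alveolus, claudin-18, claudin-3 and claudin-4 are the typical epithelial claudins, with claudin-18 the one most particular to the lung.

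All 8 genes were detected in every library, and none passed the thresholds of the comparison between model and control. The values are FPKM, a level per transcript length and library size that the authors estimated for each transcript and that was summed here for each gene name. A gene was called when limma on log2 of FPKM plus 1 gave it an unadjusted p no higher than 0.05 and it had a log2 ratio of the group means of at least 1 in either direction. Of the 8 genes, 0 were called, where 1.52% of the 19645 genes tested were. By the unadjusted p alone, 1 of the 8 passed, where 4.91% of all genes did, and after adjustment over all genes 0 of the 8 had a p below 0.05 (limma), where 0.0102% of all genes did. The gene below the unadjusted threshold was Ocln, which was lower in the model samples. The log2 fold changes of the 8 genes lay between -0.28 and 0.17 with a median of 0.09, where the median of all genes tested was -0.0072. Among them 6 were above 0 and 2 below, where 9339 of the 19645 genes tested were above 0 and 10306 below.

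**Figure D1:**
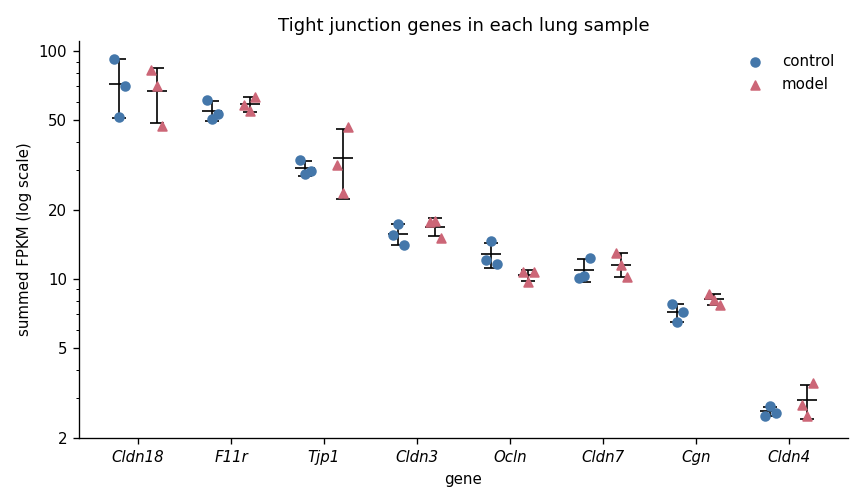
Summed FPKM (log scale) of the 8 genes in each of the 3 control (circles) and 3 model (triangles) samples, ordered by mean level, with the mean and SD of each group in black. The groups overlap for all genes but Ocln, for which the model samples, 9.68 to 10.7, lie below the control samples, 11.6 to 14.7.

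The levels of the genes spanned a wide range within each lung. Averaged over the 6 samples, Cldn18 stood at 69.0 FPKM, F11r at 56.7, Tjp1 at 32.3, Cldn3 at 16.4, Ocln at 11.6, Cldn7 at 11.3, Cgn at 7.64 and Cldn4 at 2.78. The mean of Cldn18 was above that of 98.0% of the genes tested and that of Cldn4 above 42.0%. Neighbours in this order could not be separated in 3 places. The ranges of Cldn18 and F11r overlapped, with Cldn18 the higher of the pair in 5 of 6 samples. Cldn3 and Ocln overlapped in range, though Cldn3 was higher in 6 of 6 samples, and Ocln exceeded Cldn7 in only 3 of 6. The other neighbours did not overlap. From the per-base coverage in the table, the lowest estimate behind a value was 198 reads for Cldn4 in 1 sample, and the highest was 24087 reads for Cldn18.

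Among the claudins, Cldn18 was the most abundant and the most variable in summed FPKM. Its FPKM was 92.8, 51.5 and 70.1 in control samples 1 to 3 and 82.4, 70.6 and 47.0 in model samples 1 to 3. The spread within each group was wider than the distance between the groups, whose means were 71.4 ± 20.7 and 66.7 ± 18.1 (SD, n = 3). The log2 fold change was -0.10 with a 95% interval from -0.76 to 0.56 (limma, adjusted p = 0.983). Without control sample 1 it was 0.11 and without model sample 3 it was 0.13, so 1 library decided its sign. The Cldn18 reads estimated from coverage were 17364, 16315 and 16861 in control and 19477, 24087 and 14385 in model samples. The control samples were thus much closer in reads than in summed FPKM.

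Cldn3, Cldn4 and Cldn7, the claudins shared by alveolar and airway epithelium, varied less. Cldn3 was measured at 15.6, 17.4 and 14.1 FPKM in control and at 17.8, 18.0 and 15.1 in model samples. For Cldn4, the FPKM was 2.51, 2.77 and 2.59 in control and 2.79, 2.51 and 3.50 in model samples. Cldn7 was at 10.1, 10.3 and 12.4 in control and at 12.9, 11.6 and 10.2 in model samples. In each of the 3 genes the groups overlapped, and the highest Cldn4 value belonged to model sample 3. The log2 fold changes were 0.11 for Cldn3 (95% interval -0.16 to 0.37), 0.11 for Cldn4 (-0.22 to 0.44) and 0.07 for Cldn7 (-0.22 to 0.37). A change of 1 on this scale lies outside all 3 intervals, whereas the values do not show that the levels were equal. Because 1 was added to each FPKM, a doubling is less than 1 on this scale for a low gene such as Cldn4. Leaving out model sample 1 turned the sign for Cldn7, to -0.0072.

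Ocln encodes occludin, a membrane protein of the strands that is thought to stabilize and regulate the seal. Its FPKM was 12.1, 14.7 and 11.6 in control and 10.7, 9.68 and 10.7 in model samples. Every model sample lay below every control sample, which was also so for 5.87% of all genes tested. The means were 12.8 ± 1.65 in control and 10.4 ± 0.604 in model samples (SD, n = 3). On the log2 scale Ocln differed by -0.28 (standard error 0.11, 95% interval -0.54 to -0.01, limma unadjusted p = 0.0435), and 2.77% of all genes had such a p with lower values in the model. The adjusted p was 0.933 (limma), and the ratio of the means was far short of the fold threshold. Leaving out any 1 sample other than control sample 3 took the unadjusted p above the threshold, up to 0.132 without control sample 2, with log2 fold changes between -0.34 and -0.18. The sum over the annotated transcripts alone was 0.42 on the log2 scale, in the other direction (limma unadjusted p = 0.348).

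Tjp1, which encodes ZO-1, was at 33.3, 28.9 and 29.9 FPKM in control and at 31.6, 23.9 and 46.6 in model samples. The model samples held both the lowest and the highest value, and the log2 fold change was 0.09 (95% interval -0.45 to 0.64, limma adjusted p = 0.976). Without model sample 3 it was -0.15. Cgn encodes cingulin, a plaque protein that binds ZO-1 and actomyosin. Its FPKM was 7.78, 6.49 and 7.13 in control and 8.61, 8.13 and 7.69 in model samples, with an overlap of 1 control and 1 model value and a log2 fold change of 0.17 (95% interval -0.07 to 0.42, limma adjusted p = 0.933). F11r encodes junctional adhesion molecule A, an immunoglobulin-like protein of both epithelium and endothelium. It was at 61.3, 50.3 and 53.1 in control and at 58.3, 54.4 and 62.8 in model samples. The F11r groups overlapped over most of their range, and the log2 fold change was 0.09 (95% interval -0.15 to 0.33, limma adjusted p = 0.942).

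**Figure D2:**
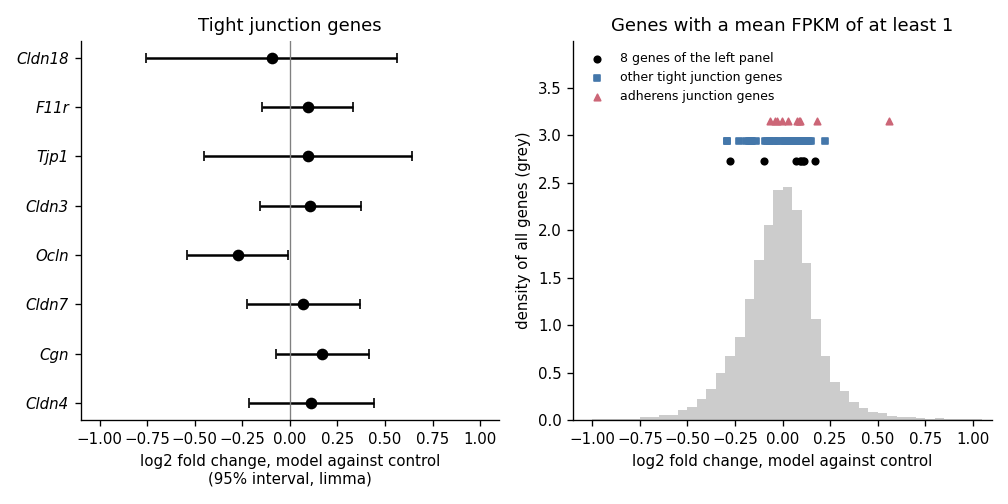
Left, log2 fold change of model against control for the 8 genes, with 95% intervals from limma. Right, the same quantity for the 8 genes (black), other tight junction genes (blue) and adherens junction genes (red) with a mean FPKM of at least 1, above the density of all such genes (grey). The blue and red genes with an unadjusted p of at most 0.05 (limma) are Mpp5 at -0.29 and Nectin2 at 0.56.

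Several of these genes have transcripts that differ in their ends and exons, and the sums hide this. Of the 35 transcripts, 10 carried an Ensembl identifier, 20 were assembled transcripts with at least 1 annotated junction (class j), and 5 had another position relative to the annotation. The annotated share of the summed FPKM depended on the gene. It was 100% for Cldn4, between 85.0% and 95.1% for Cldn3 and between 76.5% and 95.1% for Cldn7, genes with 1 or 2 transcripts. It was between 31.8% and 59.6% for F11r, 10.3% and 30.9% for Cgn, and 4.5% and 28.9% for Ocln. Of the 34 transcripts tested, 2 had an unadjusted p of at most 0.05 (limma), which is 5.88%, where 4.53% of all 64867 transcripts did. Both were lower in the model, and 2.65% of all transcripts had such a p with lower values. Of the 34, 0 passed the fold threshold as well, where 2.98% of all transcripts did. The lowest adjusted p of the 34 was 0.945 (limma), where 0.0277% of all transcripts had one below 0.05.

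The first was MSTRG.18585.4, an assembled transcript of Ocln of 8 exons and 3537 bases on chromosome 2, from 30528242 to 30577679 on the minus strand (coordinates as in the table, whose genome build is not given in the sources used here). It was the most abundant Ocln transcript in all samples, at 6.46, 5.50 and 5.76 FPKM in control and 4.01, 2.50 and 3.99 in model samples. All model samples lay below all control samples, as they did for 6.29% of all transcripts. The log2 fold change was -0.64 (standard error 0.17, limma unadjusted p = 0.0118, adjusted p = 0.945). Without any 1 sample it stayed between -0.72 and -0.46, with an unadjusted p (limma) between 0.0131 and 0.0418. The annotated Ocln transcripts were low and uneven. ENSRNOT00000084667 was at 0.117, 3.03 and 0.214 FPKM in control and 0.124, 2.06 and 3.01 in model samples, so that both groups held low and high samples. The assembled MSTRG.18585.1 was at 0.595, 0.374 and 1.28 in control and 0.471, 0.367 and 0.453 in model samples, and MSTRG.18585.2 at 0.382, 0.458 and 0.624 and at 0.957, 0.428 and 0.291. Neither separated the groups. The single-exon row MSTRG.18586.1, which the table places within an intron of Ocln but on the plus strand, was at 2.09, 1.97 and 1.81 in control and 2.07, 1.98 and 2.43 in model samples. The short row MSTRG.18584.1, beyond the 3′ end, was at 1.49, 3.25 and 1.62 in control and 1.79, 2.22 and 0.451 in model samples. Without these 2 rows, the Ocln sum was 8.56, 9.47 and 8.18 in control and 6.88, 5.47 and 7.82 in model samples, with a log2 fold change of -0.34 (limma unadjusted p = 0.0402). This sum was chosen after the values were seen.

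**Figure D3:**
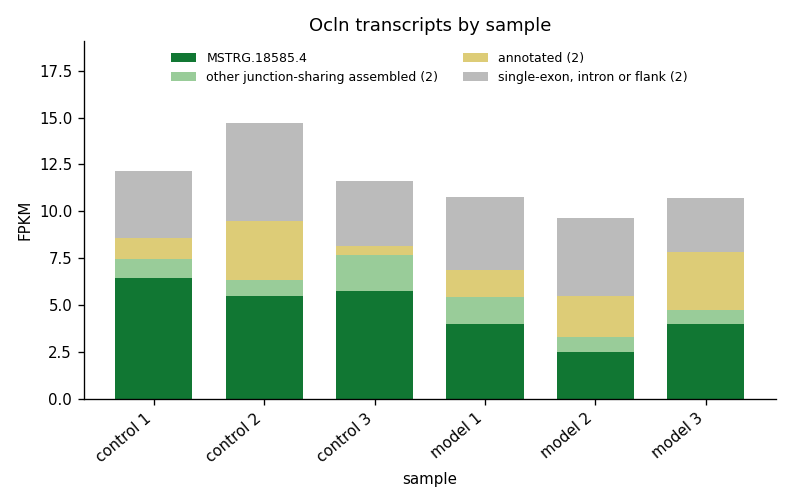
FPKM of the Ocln transcripts in each sample, stacked so that the height of a bar is the gene's sum. MSTRG.18585.4 (dark green) is at 5.50 to 6.46 in the control and 2.50 to 4.01 in the model samples, while the annotated transcripts (yellow) range from 0.521 to 3.13 across both groups.

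The second was MSTRG.2005.2, a transcript of Tjp1 of 29 exons and 16829 bases on chromosome 1, from 126136411 to 126227682 on the minus strand. It was at 2.17, 2.62 and 2.54 FPKM in control and 1.58, 1.74 and 1.01 in model samples, with no overlap (log2 fold change -0.51, limma unadjusted p = 0.0282, adjusted p = 0.945). The unadjusted p was above the threshold without control sample 2 (0.0830), control sample 3 (0.0745) or model sample 3 (0.0563), all from limma. An F test with a library size covariate moved the log2 fold change to -0.21, and its unadjusted p of 0.165 was above the threshold too. Model sample 3 was set apart by the 3′ ends of its Tjp1 transcripts. The 2 transcripts that stop at the first of 5 annotated or assembled 3′ ends, position 126147386, summed to 7.49, 4.71 and 3.26 FPKM in control samples and to 7.39, 3.68 and 38.7 in model samples. They made up between 10.9% and 23.4% of the summed FPKM in 5 samples and 83.0% in model sample 3. One of them, the annotated ENSRNOT00000087332 of 6018 bases, was at 27.2 FPKM there and between 1.78 and 5.45 in the other samples (log2 fold change 1.20, limma unadjusted p = 0.177). The companion transcript MSTRG.2005.10 was at 3.31, 2.002 and 1.48 in control and 1.94, 1.13 and 11.5 in model samples. The other Tjp1 transcripts were each lowest in model sample 3. The 6 transcripts with the next 3′ end (ENSRNOT00000014988, MSTRG.2005.4, MSTRG.2005.5, MSTRG.2005.6, MSTRG.2005.7 and MSTRG.2005.8) summed to 15.5, 11.8 and 15.2 in control and 14.0, 9.25 and 3.50 in model samples. MSTRG.2005.1, which reaches furthest, was at 4.43, 7.80 and 6.32 in control and 5.52, 6.92 and 2.11 in model samples, and MSTRG.2005.3 was at 3.66, 1.92 and 2.56 and at 3.06, 2.30 and 1.28. The groups overlapped in all 3 of these values. The Tjp1 reads estimated from coverage did not stand apart in that sample, with 16312 where the 6 samples ranged from 13985 to 18279. Weighting each transcript by its length gave Tjp1 sums of 3.15, 3.03 and 3.05 in control and 3.02, 2.59 and 2.89 in model samples. The log2 fold change was then -0.09 in place of 0.09 (limma unadjusted p = 0.263). By these weighted sums all model samples lay below all control samples, narrowly so for model sample 1 (3.016) and control sample 2 (3.026). The share of all genes apart under this weighting was not computed.

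Cldn18 transcripts also varied between samples, and they differ at both the 5′ end and the 3′ end. Claudin-18 is known to have a lung form and a stomach form that differ in their first exon, and which form each assembled transcript belongs to was not examined. Transcripts that begin with the annotated transcript ENSRNOT00000052043 summed to 55.6, 38.7 and 48.4 FPKM in control and 70.3, 58.9 and 41.8 in model samples. MSTRG.35580.3, which begins further upstream and has 5 exons over 4694 bases, was at 30.7, 0 and 13.2 in control and at 0.661, 0 and 0 in model samples. Its values were high in 2 control samples only, and the difference did not pass the test (limma unadjusted p = 0.0821). MSTRG.35580.1 shares the annotated 5′ end but covers 7420 bases. On the minus strand it ends at 107932772, where the annotated transcript ends at 107934860. MSTRG.35580.2 and MSTRG.35580.3 end at 107932772 and 107932773. MSTRG.35580.1 was listed at 0 in 3 samples, at 1.89 in control sample 3, and at 28.5 and 19.8 in model samples 2 and 3 (limma unadjusted p = 0.111). Model sample 1, listed at 0, had the highest value of the annotated transcript, 70.3. The longest transcript, MSTRG.35580.2, begins furthest upstream and was at 4.86, 10.99 and 6.65 in control and 9.87, 9.81 and 4.50 in model samples, with overlap. Without control sample 2, the p for MSTRG.35580.3 was 0.000298, and without model sample 1 that for MSTRG.35580.1 was 0.000859 (limma, unadjusted), so single libraries decided both calls. With a sum weighted by length, Cldn18 was at 8.30, 8.49 and 7.65 in control and 8.91, 12.1 and 6.94 in model samples, and its log2 fold change was 0.15. The sums also hold MSTRG.35579.1, a row on the opposite strand with at most 1.92 FPKM in any sample.

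**Figure D4:**
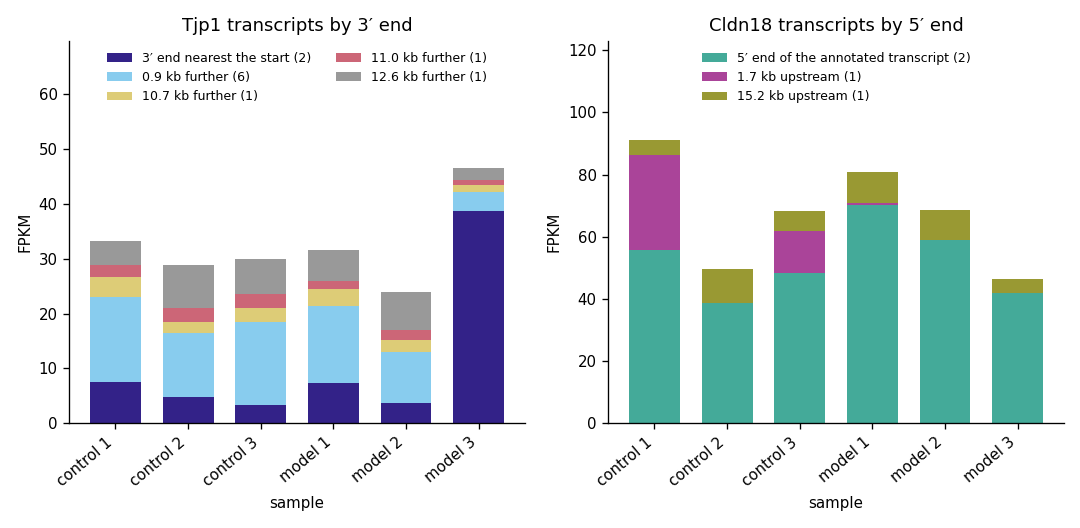
FPKM by sample, stacked by the 3′ end of Tjp1 transcripts (left) and the 5′ end of Cldn18 transcripts (right, without the antisense row), with the number of transcripts in parentheses and distances in kilobases from the reference end. Tjp1 transcripts with the nearest 3′ end (dark blue) reach 38.7 FPKM in model sample 3 alone, and the Cldn18 transcript with the middle 5′ end (purple) is at 30.7 and 13.2 in control samples 1 and 3 and at 0.661 or 0 elsewhere.

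For Cgn, the junction-sharing transcript MSTRG.20261.2 was at 6.87, 1.79 and 5.87 FPKM in control and 7.40, 7.19 and 6.90 in model samples. The groups did not overlap, as was the case with higher values in the model for 4.12% of all transcripts, but control sample 2 stood far below the rest and the log2 fold change of 0.62 had an unadjusted p of 0.178 (limma). In that control sample the related MSTRG.20261.3 was at 2.70, and it was listed at 0 in the other 5 samples. The annotated ENSRNOT00000028440 was low, at 0.911, 2.01 and 1.26 in control and 1.21, 0.935 and 0.789 in model samples, with overlap. The main F11r transcripts also traded places between samples. The annotated ENSRNOT00000006141 was at 27.4, 16.0 and 27.4 in control and 19.0, 21.4 and 37.4 in model samples, while MSTRG.10398.1 was at 27.6, 25.3 and 21.1 in control and 30.5, 26.3 and 20.4 in model samples. The shorter-reaching MSTRG.10398.4 was at 3.69, 5.98 and 1.64 in control and 5.78, 3.47 and 1.67 in model samples. None of the 3 F11r transcripts separated the groups. For Cldn7, the annotated transcript was at 8.38, 8.35 and 11.8 in control and 11.5, 8.85 and 9.67 in model samples, and the assembled MSTRG.5654.1 at 1.74, 1.97 and 0.617 and at 1.46, 2.73 and 0.499. The annotated Cldn3 transcript, which has a single exon, was at 14.0, 15.6 and 13.0 in control and 16.0, 15.3 and 14.4 in model samples. In all 3 the groups overlapped.

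The balance of claudins was compared within each library by the log2 ratio of 2 genes, each taken as FPKM plus 1. The added 1 draws the ratios of a low gene such as Cldn4 towards 0, and it leaves a ratio partly dependent on the scaling of the library. The log2 ratio of Cldn4 to Cldn18 was -4.74, -3.80 and -4.31 in control and -4.46, -4.35 and -3.41 in model samples. The log2 ratio of Cldn3 to Cldn18 was -2.49, -1.51 and -2.24 in control and -2.15, -1.91 and -1.57 in model samples. In both, the control samples enclosed most of the model values. The differences between groups were 0.21 and 0.20, with exact p = 0.7 and exact p = 0.6 (two-sided permutation test over samples, adjusted over 7 ratios 0.98). Cldn18 relative to Ager, a marker of alveolar type 1 cells, differed by -0.19 (exact p = 0.5), Cldn3 relative to the surfactant gene Sftpc by -0.17 (exact p = 0.6) and Cldn7 relative to the epithelial marker Epcam by 0.05 (exact p = 1.0). The smallest p that 3 samples against 3 allow is 0.1. None of the 7 ratios separated the groups, and the planned ratios with Cldn5 were not computed.

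Other tight junction genes were counted from a list. Of 51 further genes listed for claudins, tricellular proteins, adhesion molecules, scaffolds and polarity proteins, 46 had rows, and of these 24 had a log2 fold change above 0 and 22 below, with a median of 0.01. No gene of this list was called (1.52% of all genes were), and 1 had an unadjusted p of at most 0.05 (limma), where 4.91% of all genes did. It was Mpp5 (PALS1), a scaffold of the Crumbs polarity complex, at 16.6, 14.9 and 14.2 FPKM in control and 13.6, 12.8 and 10.5 in model samples (log2 fold change -0.29, limma unadjusted p = 0.0469, adjusted p = 0.933). Crb3, the membrane partner of PALS1, was named after its values were seen, as the other gene of the list with all model samples below all control samples, which held for 5.87% of all genes. It was at 7.01, 7.45 and 7.84 in control and 6.57, 6.98 and 6.01 in model samples (log2 fold change -0.17, limma unadjusted p = 0.142). Jam2, Esam, Lsr, Cgnl1, Magi1, Magi3, Patj, Pard3, Pard6b, Prkci, Prkcz, Ybx3, Amotl1, Amotl2 and Arhgef11 had a mean of at least 10 FPKM and did not pass the test. The 14 further claudins with rows were all low, from Cldn17 at a mean of 0.0231 FPKM to Cldn11, the claudin of myelin and Sertoli cells, at 5.78.

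Adherens junctions lie next to tight junctions and join cells through cadherins and nectins. Of 10 such genes, 0 were called, where 1.52% of all genes were, and 1 had an unadjusted p of at most 0.05 (limma), where 4.91% of all genes did. Nectin2 was at 16.6, 9.78 and 9.95 FPKM in control and 19.9, 15.1 and 18.7 in model samples, with control sample 1 inside the model range (log2 fold change 0.56, limma unadjusted p = 0.0379, adjusted p = 0.933), and 2.14% of all genes had such a p with higher values in the model. Ctnnb1, β-catenin, was at 104.2, 102.0 and 103.3 in control and at 117.3, 109.7 and 125.0 in model samples, all above the control samples, as for 4.82% of all genes, with a log2 fold change of 0.18 (limma unadjusted p = 0.0567). Afdn separated the groups in the other direction, with all model samples below all control samples, as for 5.87% of all genes. It was at 36.35, 33.88 and 33.26 in control and at 32.51, 32.93 and 33.25 in model samples (log2 fold change -0.07, limma unadjusted p = 0.364). Cdh1, Cdh5, Ctnna1, Ctnnd1, Jup, Nectin3 and Afdn had a mean of at least 10 FPKM and did not pass the test.

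Most of the listed markers of lung cell types were present in all samples, in keeping with lung as the labelled tissue. Foxj1, Pecam1 and Marco had no row, and the mesothelial marker Wt1 was at most 0.16 FPKM and was listed at 0 in model sample 3. The summed FPKM of 6 epithelial markers ranged from 150.2 to 184.9 in control and from 162.7 to 188.8 in model samples, that of 5 alveolar type 1 markers from 538.8 to 714.1 and from 642.8 to 757.4, and that of 7 alveolar type 2 markers from 4347 to 6046 and from 5127 to 6664. The endothelial sum, with 6 of 7 markers found, ranged from 416.2 to 561.5 and from 476.4 to 540.5. The airway sum, with 3 of 4 found, ranged from 4615 to 7914 and from 4161 to 6379. Mesothelial sums ranged from 4.66 to 9.10 and from 5.29 to 11.1, and leukocyte sums, with 4 of 5 found, from 49.7 to 66.4 and from 36.8 to 59.4. The sum of 5 fibroblast markers was the exception, at 289.2 to 312.0 in control and 321.1 to 409.3 in model samples, which do not overlap. Of the 5 markers only Col3a1, a fibrillar collagen gene with a mean of 168.5 in control and 208.3 in model samples, separated the groups, and it made up most of the sum. Such a separation with higher model values held for 4.82% of all genes. Col3a1 had a log2 fold change of 0.30 (limma unadjusted p = 0.0366, adjusted p = 0.933). An unadjusted p of at most 0.05 with higher values in the model was found for 2.14% of all genes. The epithelial marker Krt8 also separated the groups, at 24.12, 24.23 and 25.68 in control and 34.07, 27.54 and 25.83 in model samples. Col1a1, Col1a2, Pdgfra and Pdgfrb overlapped between the groups, with Pdgfra at -0.06 on the log2 scale. The part of the cells behind this sum in the Ocln result was not tested.

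As for the likeness of patterns, the gene most like each of the 8 over the 6 samples, by Pearson's r of log2 values and among 14320 genes, was RT1-DMb for Cldn3, Fmnl3 for Cldn4, Sgms1 for Cldn7, Fam219a for Cldn18, Ubald1 for Ocln, Ckap4 for Tjp1, Frrs1l for F11r and Lmo4 for Cgn. These best r lay between 0.975 and 0.997, where the median of the best r over all genes was 0.993, so that matches this close were usual with 6 samples.

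Promoters of epithelial junction genes are known targets of the Snail and ZEB repressors, which bind the E-box CACCTG or, on the other strand, CAGGTG. RefSeq promoters (build GRCr8, which is not to be mixed with the coordinates above) were matched for 7 of the 8 genes, Cldn4 being the one without. In the 250 bases before the start, 4 of the 7 held the E-box on either strand, as did 15.9% of 33469 promoters. Cldn7 held 4 of them, Ocln 2, and Cldn3 and F11r 1 each, while these letters did not occur in the windows of Cldn18, Tjp1 and Cgn. The windows of 30 bases around both Ocln sites and the closely spaced pair in Cldn7 are shown because Ocln was the gene with lower values in the model and Cldn7 the one with the most matches. Each is read 5′ to 3′ on the strand of the gene, with the E-box in capitals.
Ocln, chr2:33441318-33441347, minus strand: ctctgctagctcCAGGTGgtgagcccggcc
Ocln, chr2:33441249-33441278, minus strand: ccatcggagtttCAGGTGaatgggtcaccc
Cldn7, chr10:55188630-55188659, plus strand: cgtatatatactCAGGTGcgccgCACCTGt
The first motif in each window began 137, 68 and 28 bases before the start, in this order. The genes with and without the E-box overlapped in their log2 fold changes, with Ocln at -0.28, Cldn3 at 0.11, Cldn7 at 0.07 and F11r at 0.09 against -0.10 for Cldn18, 0.09 for Tjp1 and 0.17 for Cgn. A match of letters is not evidence of binding in these lungs.

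Circular RNAs of these genes were rare. Of the 5216 circRNAs in the deposited table, 5 came from 2 of the genes, with 7 back-splice reads in all, in libraries of 2037 to 2964 such reads. The Ocln circRNA, 3 exons between 30559682 and 30566431 on chromosome 2, had 1 read in control sample 3 and 2 reads in model sample 1. The 4 Tjp1 rows had 1 read each, 1 in model sample 1 and 3 in model sample 3. At this depth no difference between the groups could be detected.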

How the data were processed

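Lung RNA of 3 control and 3 PF model rats was measured, with 1 library per rat, grouped by the labelled sample type. The authors used Cutadapt for trimming and Bowtie2 and Tophat2 for mapping (the submitters' processing notes name HISAT2, StringTie and TopHat), assembled transcripts with StringTie, merged the assemblies, and deposited FPKM per transcript estimated with StringTie and Ballgown. They also deposited per-base coverage, a signal from which reads were estimated here as coverage times length over the read length of 150 bases, and raw counts of back-splice reads for circRNAs. The deposited SRPBM were not used.

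FPKM were summed by gene name, and 10494 transcripts without one were left out of the gene sums. Features above 0 in at least 3 of 6 samples were tested in limma 3.58.1 with a variance trend (R 4.3.3) on log2(FPKM + 1), which understates the change of low genes, with Benjamini-Hochberg adjustment over all features. The call used the thresholds of the study's methods, a p of at most 0.05 and a log2 ratio of at least 1. Ratios of FPKM + 1 were tested by exact permutation. The limma p-values set the difference between the groups against the spread among samples within them, with variances moderated over all features. The permutation p-values rank the difference among all regroupings of the 6 samples. Estimated reads per library lay between 35778631 and 41112682.

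The genes and lists were chosen with earlier results of these data known. Every gene of the 9 was to be named, with its transcripts of a mean FPKM of at least 0.5 or an unadjusted p of at most 0.05, and listed genes with a mean of at least 10 or a call, of which 1 is not reported here. Tests are printed for 5 transcripts, those with a p of at most 0.05 or a log2 ratio of at least 2 in either direction, which was decided after values were seen, besides Cgn MSTRG.20261.2. The deviations of same-numbered samples from their group means were weakly correlated (0.07, 0.03 and -0.09), and the samples were treated as unpaired. Whether same-numbered samples shared a batch was not tested. Alternatives were another pseudocount, filters, scalings, tests and gene sums, a replicate block, and the omission of each sample in turn. Python 3.11.15, pandas 2.3.3, numpy 2.4.6, scipy 1.17.1 and matplotlib 3.10.9 were used.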

Additional observations from a re-analysis of the deposited data

How the results depend on the processing

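No gene of the 8 passed both thresholds under any alternative run, including each sample left out. The 298 genes called became 2 by an adjusted p below 0.05, 84 with a mean FPKM of at least 1, 153 with an F test and a library size covariate and 519 with annotated transcripts only, and the 1934 transcripts called became 18, 1066 and 820 under the first 3 of these. Of the genes called, 43.6% were higher in the model, against 58.2% after rescaling to TPM, which moved the median log2 fold change of all genes to 0.05. The 1 gene with an unadjusted p of at most 0.05, Ocln, was 0 genes after rescaling to TPM, with the F test, with the replicate block, with the length-weighted sum and with annotated transcripts only, and between 0 and 1 with each sample left out. Its unadjusted p (limma) with the replicate block was 0.0910. The length-weighted Ocln sums were low, at 1.14 to 1.80 FPKM, where the added 1 draws the log2 fold change (-0.18) towards 0. In these sums too, all model samples lay below all control samples. The 2 transcripts with an unadjusted p of at most 0.05 (limma) became 1 with the replicate block and between 1 and 5 with each sample left out. With each sample left out, those past both thresholds numbered between 0 and 2. The numbers share no animal, and the block is given for completeness. The count of ratios whose groups were apart was 1 with the length-weighted sum (F11r to Tjp1, 0.17) and between 0 and 2 with each sample left out. Signs turned for Cldn3 with the F test (-0.0254), for Cldn18 (0.15) and Tjp1 (-0.0899) with the length-weighted sum, for Ocln (0.42) and Cgn (-0.25) with annotated transcripts only, and for ENSRNOT00000087332 with the F test (-0.75). With the length-weighted sum, the ratios of Cldn4, Cldn3 and Cldn7 to Cldn18 became -0.0332, -0.0433 and -0.0805 and that of Cldn18 to Ager 0.0618. With each sample left out, Cldn18 ranged from -0.31 to 0.13, Cldn7 from -0.0072 to 0.16, Tjp1 from -0.15 to 0.32, the ratios of Cldn4, Cldn3 and Cldn7 to Cldn18 from -0.12 to 0.45, from -0.0032 to 0.49 and from -0.089 to 0.34, Cldn3 to Sftpc from -0.34 to 0.0457, Cldn7 to Epcam from -0.0234 to 0.18 and F11r to Tjp1 from -0.17 to 0.19. The sum over classes = and j was added after the data were seen. The cause of these changes was not tested. With 3 rats a group, intervals for Cldn18 and Tjp1 include changes of over 0.5 on the log2 scale, so that changes of this size were not detectable.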

Other observations

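Some rows at these loci are not spliced forms of the genes themselves. MSTRG.35579.1, on the strand opposite to Cldn18, was at 1.59, 1.81 and 1.75 FPKM in control and 1.61, 1.92 and 0.694 in model samples. MSTRG.10398.3, which the table places within an intron of F11r, was at 2.53, 3.06 and 2.87 in control and 3.13, 3.20 and 3.24 in model samples. All its model values lay above all its control values, as for 4.12% of all transcripts. MSTRG.8881.1, a single-exon row next to Cldn3, was at 1.66, 1.83 and 1.13 in control and 1.80, 2.71 and 0.743 in model samples.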
